A study of Homo sapiens with 12 samples.

Results

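Lamins and high-mobility-group (HMG) chromatin proteins were followed as 10 named genes, HMGB1, HMGB2, HMGB3, HMGA1, HMGN1, HMGN2, LMNA, LMNB1, LMNB2 and LBR. They were chosen by name, as nuclear proteins that have been linked to senescence, with earlier results of these data known. All 10 were found by Ensembl identifier among the 16676 genes of the expression table. All samples came from HCT116, an established cell line of human colon carcinoma. The groups, each with 2 biological replicates (letters a and b), were cells over-expressing the long non-coding RNA SPARCLE with 1 µM doxorubicin (OE dox) or in regular medium (OE control), cells knocked out for SPARCLE with doxorubicin (KO dox) or in regular medium (KO control), and wild-type cells with doxorubicin (WT dox) or in regular medium (WT control). Treatment lasted 48 h. Doxorubicin, a chemotherapy drug of the anthracycline class, breaks DNA by poisoning topoisomerase II. The labels name no clones or over-expression construct, so p-values measure the spread between these libraries only.

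Lamins are intermediate filament proteins that form a meshwork under the inner nuclear membrane. LMNA encodes lamins A and C, LMNB1 and LMNB2 encode the B-type lamins, and LBR is an inner membrane receptor that holds B-type lamins and heterochromatin and has a sterol reductase domain. HMG proteins are abundant, small architectural proteins of chromatin. The HMGB proteins bend DNA, HMGA1 binds the minor groove of AT-rich DNA through AT hooks, and the HMGN proteins bind nucleosomes. Loss of lamin B1, LBR and HMGB2 and release of HMGB1 from the nucleus have been described in senescent cells, and HMGA1 in the heterochromatin foci of such cells.

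By GENCODE v29 (GRCh38), the HMG genes are HMGB1 at chr13:30456704-30617597, HMGB2 at chr4:173331695-173335125, HMGB3 at chrX:150980509-150990775, HMGA1 at chr6:34236873-34246231, HMGN1 at chr21:39342315-39349647 and HMGN2 at chr1:26472450-26475972. The lamin genes are LMNA at chr1:156082573-156140089, LMNB1 at chr5:126776623-126837020 and LMNB2 at chr19:2427638-2456996, and LBR is at chr1:225401502-225428925. HMGN2, LMNA and LBR thus share chromosome 1, far apart, and each value covers all exons of its gene together.

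The 12 libraries held 11240024 to 27592670 reads on genes whose reads could be recovered from the deposited values, and the doxorubicin libraries were the deeper ones. Between 65.2 and 76.0% of TPM fell on 862 small RNA genes (TPM is read density per base of transcript, scaled to the same total in each library). Small RNA genes here include any gene not coding for protein with at most 700 exon bases, so short pseudogenes are among them. The median gene deviated from its mean over libraries by -0.26 (OE dox b) to 0.22 (KO dox a) on the log2 scale. Of the colon and epithelial markers, EPCAM (90.2 to 163 TPM), KRT8, KRT18 and KRT19 were present, CDX2 lay at 1.17 to 4.77 TPM, VIL1 stayed under 1 TPM (0.0333 to 0.987), and CDX1 and LGALS4 were not listed. VIM, a mesenchymal marker, lay at 0.0113 to 3.95 TPM. Of 12 leukocyte markers 3 were listed, and the pan-leukocyte gene PTPRC was not among them.

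Doxorubicin lowered 5 of the 10 genes in OE, KO and WT cells alike, namely HMGB2, LMNB1, HMGA1, HMGB1 and LBR. HMGB2 fell most, and its mean level was 20.9 times lower in OE, 18.9 times lower in KO and 15.1 times lower in WT cells. LMNB1 was 3.93, 3.15 and 3.50 times lower in OE, KO and WT cells, while its relatives LMNA and LMNB2 did not pass the test in any of the 3 kinds of cell. Called here means a Benjamini-Hochberg adjusted p under 0.05 in limma over 15256 genes, on log2(TPM + 1). In OE cells 5 of 10 members were called lower, against 10.6% of all genes tested; in KO cells 6 of 10, against 14.3%; and in WT cells 5 of 10, against 12.6%. No member was called higher in any of the 3, against 12.4% of all genes in OE, 9.9% in KO and 19.6% in WT cells. In the contrast that averages the 3 kinds of cell, which gains precision from 12 libraries, 7 of 10 were lower, against 25.9% of all genes, and 0 of 10 higher, against 32.2%. Since the members were chosen with earlier results of these data known, these shares describe the members and are not a test of the set. The median difference of the members was -0.74 in OE, -0.79 in KO and -0.72 in WT cells, beside 0.11, -0.01 and 0.17 for all genes. In these bulk samples, fewer cells of a type and less RNA per cell cannot be told apart. The shares of all genes depended on single libraries. In OE cells 1615 genes were called lower, against 675 without OE control a, 598 without OE control b and 914 without OE dox b. In KO cells 2185 were lower, against 857 without KO control b, 1170 without KO dox a and 1253 without KO dox b. In WT cells 1920 were lower and 2994 higher, and only 915, 1273, 1268 and 717 were lower without WT control a, WT control b, WT dox a and WT dox b. With median-ratio scaling the WT split was 3506 lower and 3447 higher.

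**Figure D1:**
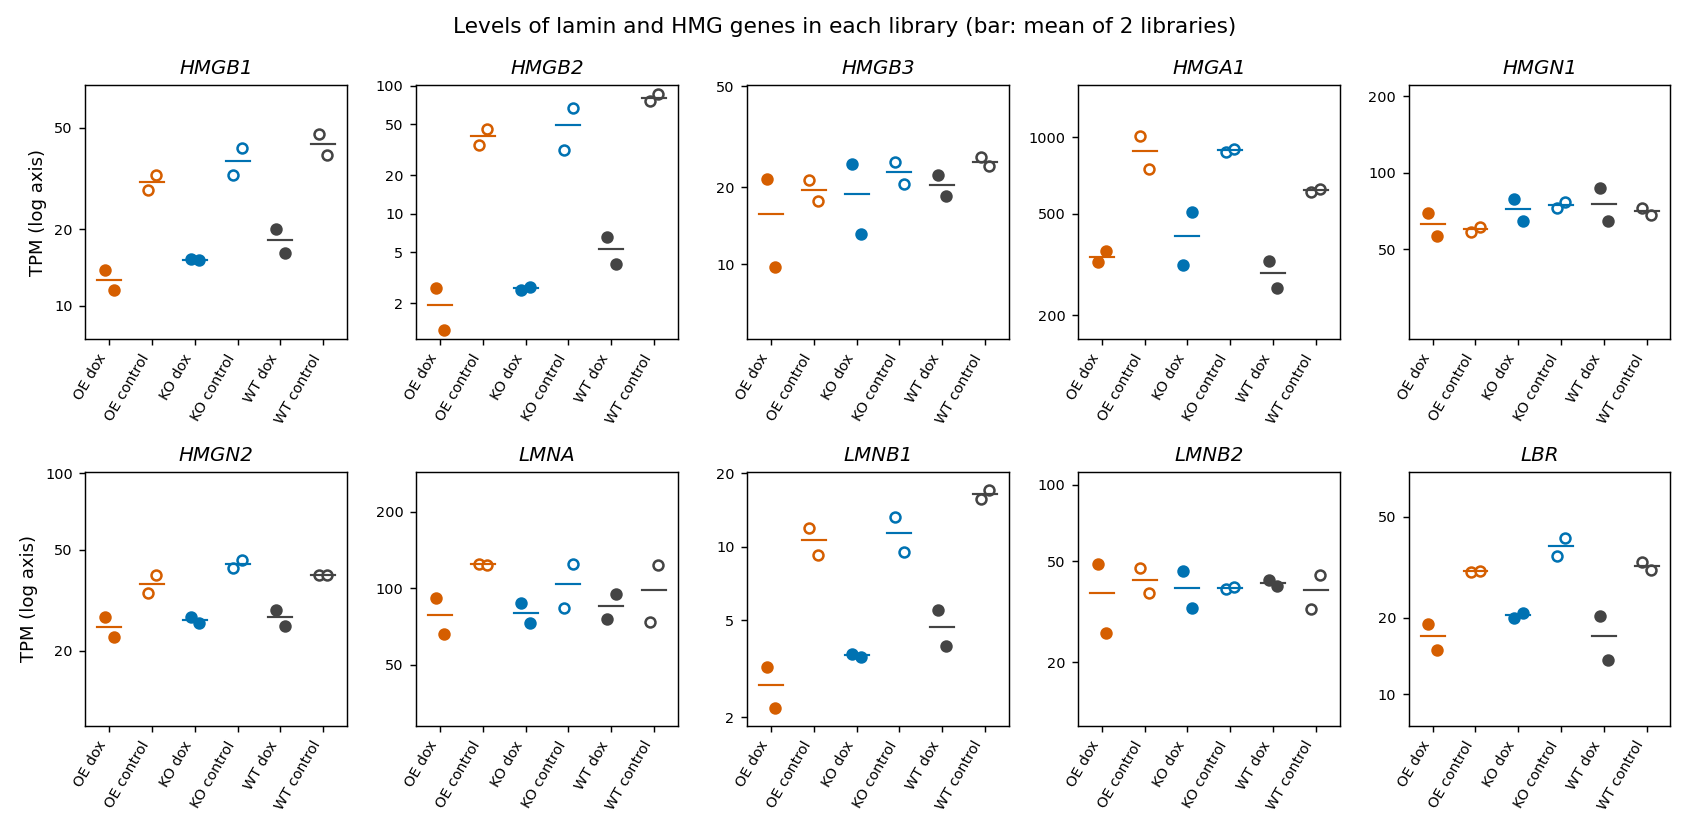
TPM of each of the 10 genes (log axis, a separate range for each gene) in every library; points are libraries, filled with doxorubicin and open in regular medium, and horizontal bars are means of 2 libraries. HMGB2 lay at 1.23 to 6.57 TPM in the 6 doxorubicin libraries and at 31.6 to 85.4 TPM in the 6 control libraries, whereas HMGN1 and LMNB2 overlapped between the media.

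HMGB2, the HMGB protein most tied to dividing cells, had 2.62 and 1.23 TPM in OE dox, against 34.6 and 45.9 TPM in OE control. It had 2.54 and 2.69 TPM in KO dox, against 31.6 and 67.3 TPM in KO control. It had 6.57 and 4.06 TPM in WT dox, against 75.4 and 85.4 TPM in WT control. Every doxorubicin library was far below every control library, and KO control a was the lowest of the controls. The values rest on 75 to 290 reads in the doxorubicin libraries and 845 to 2698 reads in the control libraries. The log2 difference was -3.85 in OE, -3.71 in KO and -3.72 in WT cells (SE 0.35 each; limma adjusted p 5.31e-05, 7.24e-05 and 5.28e-05).

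HMGB1, the related protein that acts in the nucleus as a DNA chaperone and outside cells as a danger signal, had 13.8 and 11.5 TPM in OE dox, against 28.5 and 32.5 TPM in OE control. In KO dox it had 15.2 and 15.0 TPM, against 32.7 and 41.6 TPM in KO control. In WT dox it had 20.03 and 16.1 TPM, against 47.3 and 39.2 TPM in WT control. No doxorubicin library reached a control library. The log2 differences were almost equal at -1.21 in OE, -1.23 in KO and -1.21 in WT cells (SE 0.22 each; limma adjusted p 0.00311, 0.00259 and 0.00196). HMGB3, the third HMGB protein, was not called in any of the 3 (differences -0.39, -0.33 and -0.30, SE 0.34, with 95% intervals from -1.13 to 0.35 in OE, -1.07 to 0.42 in KO and -1.04 to 0.45 in WT cells). Its doxorubicin replicates were far apart, at 21.6 and 9.75 TPM in OE dox and 24.7 and 13.1 TPM in KO dox, against 21.3 and 17.7 TPM in OE control and 25.2 and 20.7 TPM in KO control. In WT dox it had 22.4 and 18.6 TPM, against 26.3 and 24.3 TPM in WT control, which did not overlap.

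HMGA1, the AT-hook protein, had the highest TPM of the 10 in every group. It had 322 and 357 TPM in OE dox, against 1008 and 752 TPM in OE control. KO dox had 314 and 508 TPM, against 875 and 901 TPM in KO control, and in WT dox 327 and 256 TPM, against 608 and 629 TPM in WT control. The media did not overlap over all 12 libraries, and KO dox b was the highest of the doxorubicin libraries. The log2 differences were -1.36 in OE, -1.15 in KO and -1.09 in WT cells (SE 0.24 each; limma adjusted p 0.00287, 0.00601 and 0.00576). Without KO dox a the KO call was lost (limma adjusted p 0.0657), and without WT dox b the WT call was lost (0.0621).

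The nucleosome-binding pair HMGN1 and HMGN2 parted. HMGN2 had 27.1 and 22.7 TPM in OE dox, against 33.7 and 39.9 TPM in OE control. In KO dox it had 27.2 and 25.8 TPM, against 42.4 and 45.4 TPM in KO control, and in WT dox 29.01 and 25.2 TPM, against 39.9 and 39.9 TPM in WT control. All doxorubicin libraries lay below all control libraries. In KO cells HMGN2 fell (log2 difference -0.71, SE 0.20, limma adjusted p 0.0223), and in OE and WT cells the difference was -0.55 in both (SE 0.20), with limma adjusted p of 0.0623 and 0.0502. Averaged over the 3 kinds of cell it fell by 0.60 (SE 0.11, limma adjusted p 0.000697) on the log2 scale. The KO call was lost with KO control a left out (0.0533), likewise KO control b (0.13), KO dox a (0.089) or KO dox b (0.0934), and with only the KO groups in the fit (0.0666). The WT value passed in 9 of 21 alternatives, with limma adjusted p of 0.00855 (voom) to 0.0463 (no filter), among them median-ratio scaling (0.0122), no small RNA genes (0.019), only the WT groups in the fit (0.0419) and OE dox a (0.0368) or OE dox b (0.0375) left out. The OE value passed in 4 of 21, namely voom (0.0221), median-ratio scaling (0.0256), no small RNA genes (0.0424) and the replicate block (0.0431). HMGN1 was level, with 56.5 to 86.7 TPM in the 6 doxorubicin libraries and 58.5 to 76.5 TPM in the 6 control libraries. Its difference averaged over the 3 kinds of cell was 0.03 on the log2 scale, with a 95% interval from -0.23 to 0.29, and median-ratio scaling turned its sign (-0.07).

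LMNB1, which encodes lamin B1, was the lamin gene that was called lower in OE, KO and WT cells each. It had 3.23 and 2.18 TPM in OE dox, against 11.98 and 9.25 TPM in OE control. In KO dox it had 3.65 and 3.55 TPM, against 13.2 and 9.47 TPM in KO control. In WT dox it had 5.48 and 3.92 TPM, against 15.7 and 17.2 TPM in WT control. The media did not overlap, and the WT libraries were the highest within each medium. The values rest on 174 to 317 reads in the doxorubicin libraries and 360 to 737 reads in the control libraries. The log2 differences were -1.65 in OE, -1.41 in KO and -1.63 in WT cells (SE 0.27 each; limma adjusted p 0.00175, 0.00373 and 0.00121).

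LMNB2, the other B-type lamin gene, had 48.6 and 26.0 TPM in OE dox, against 47.0 and 37.5 TPM in OE control. KO dox had 45.7 and 32.7 TPM, against 39.0 and 39.5 TPM in KO control, and in WT dox 42.2 and 39.8 TPM, against 32.5 and 44.2 TPM in WT control. The groups overlapped in each kind of cell. The difference averaged over the 3 was -0.05 on the log2 scale, with a 95% interval from -0.40 to 0.31, and without small RNA genes it was 0.05. LMNB2 overlaps TIMM13 on the same strand, so reads of the shared stretch cannot be assigned by strand.

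LMNA had 91.3 and 66.2 TPM in OE dox, against 125 and 123 TPM in OE control. KO dox had 87.4 and 73.1 TPM, against 83.5 and 124 TPM in KO control, and in WT dox 75.8 and 95.0 TPM, against 74.0 and 124 TPM in WT control. Groups overlapped in KO and WT cells and not in OE cells. The log2 differences of -0.67, -0.35 and -0.17 (SE 0.28) in OE, KO and WT cells were not called (limma adjusted p 0.095, 0.376 and 0.658). The average over the 3 passed narrowly (-0.40, SE 0.16, limma adjusted p 0.0476) and was lost in 11 of 20 alternatives. Of these, 8 left out 1 library: WT control b (0.15), KO control b (0.142), OE control a (0.0823), OE control b (0.0804), WT dox a (0.126), WT dox b (0.0517), KO dox b (0.087) or OE dox b (0.114).

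LBR had 18.9 and 14.9 TPM in OE dox, against 30.3 and 30.6 TPM in OE control. KO dox had 20.04 and 20.8 TPM, against 35.1 and 41.3 TPM in KO control, and in WT dox 20.3 and 13.6 TPM, against 33.2 and 30.7 TPM in WT control. The lowest control library was well above the highest doxorubicin library. The log2 differences were -0.82 in OE, -0.87 in KO and -0.90 in WT cells (SE 0.23 each; limma adjusted p 0.0236, 0.0175 and 0.011). Single libraries could end these calls. In OE cells the call was lost without OE control a (0.0952), OE control b (0.13) or OE dox b (0.0855), and with only the OE groups in the fit (0.0545). In KO cells it was lost without KO control b (0.129) or KO dox a (0.0859). In WT cells it was lost without WT control a (0.084) or WT dox b (0.115). The average over the 3 kinds of cell was called in all 20 alternatives (-0.86, SE 0.13, limma adjusted p 0.000148).

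**Figure D2:**
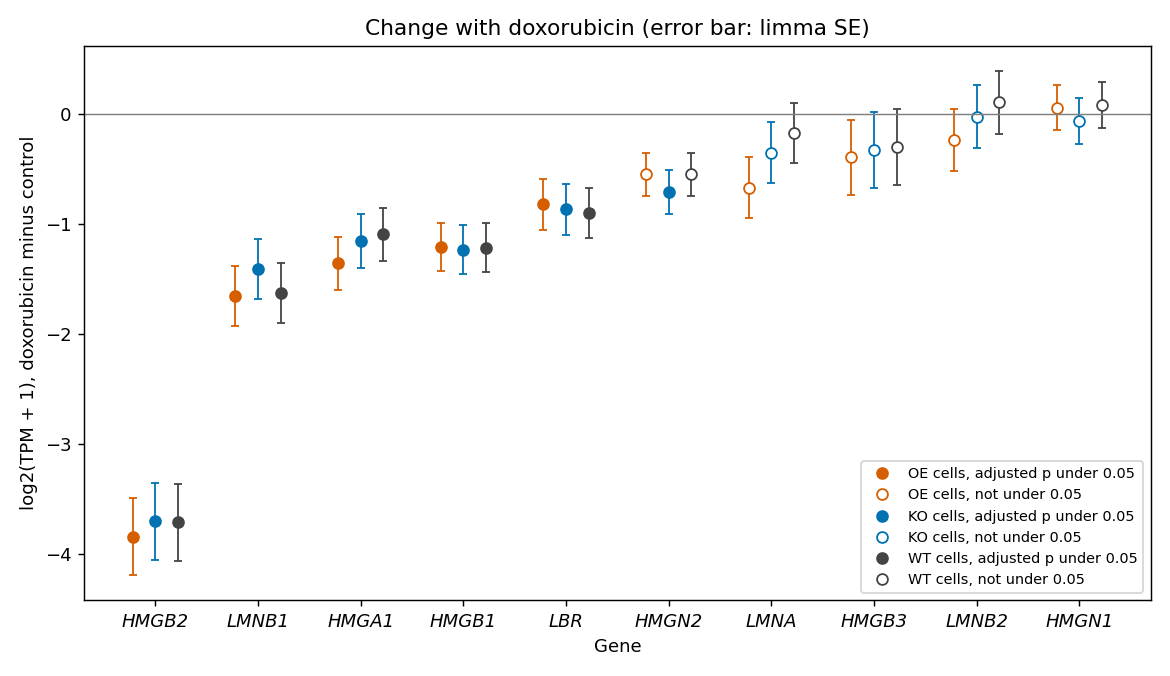
Difference in log2(TPM + 1), doxorubicin minus control, for each gene in OE, KO and WT cells; points are limma estimates, error bars their SE, and filled points have an adjusted p under 0.05. HMGB2 lies at -3.71 to -3.85 in each kind of cell, LMNB1, HMGA1, HMGB1 and LBR between -0.82 and -1.65, and HMGN1 and LMNB2 around 0.

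Because TPM is per length, levels can be roughly ordered between genes. The lengths with which reads were recovered took all exons of a gene together (LMNB2 by search), whichever transcripts were expressed. Reads of some members may also be split with pseudogenes. The order is thus one of deposited TPM and need not be that of the RNA molecules. In the 6 control libraries the median level was 814 TPM for HMGA1, 123 for LMNA, 70.2 for HMGN1, 56.6 for HMGB2, 39.9 for HMGN2, 39.3 for LMNB2, 35.95 for HMGB1, 32.0 for LBR, 22.8 for HMGB3 and 12.6 for LMNB1. The lowest HMGA1 value was above the highest LMNA value and LMNB1 never reached the lowest HMGB3 value, LBR lay above HMGB3 in all 6, and the other neighbours in this order overlapped in range. With doxorubicin HMGA1 and LMNA still led, with medians of 325 and 81.6 TPM, and HMGB2 was last, with 2.65 TPM beside 3.60 TPM for LMNB1. These last genes overlapped each other, and both lay below the 9.75 TPM minimum of HMGB3.

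Ratios of closely related genes within a library hardly depend on how that library was scaled. Exact permutation tests that shuffled medium within each kind of cell (216 arrangements, two-sided) were run on 4 ratios of TPM + 1, and each gave p = 0.00926, the smallest that these arrangements can give, also after adjustment over the 4. In each pair the first gene had the more negative doxorubicin difference in the fits above, which used the same libraries. These p-values thus restate differences already seen and are no separate support for them. The log2 ratio of HMGB2 to HMGB1 averaged -2.01 ± 0.35 with doxorubicin and 0.53 ± 0.39 in control medium (SD, n = 6 each). The ratio of LMNB1 to LMNB2 averaged -3.11 ± 0.29 with doxorubicin and -1.59 ± 0.39 in control medium. For LMNB1 to LMNA the averages were -4.16 ± 0.33 with doxorubicin and -3.00 ± 0.58 in control medium, and the highest doxorubicin value, -3.57 in WT dox a, was above the lowest control value, -3.60 in OE control b. For HMGN2 to HMGN1 they were -1.38 ± 0.11 with doxorubicin and -0.75 ± 0.08 in control medium. Within OE, KO and WT cells the differences were -2.64, -2.48 and -2.50 for HMGB2 to HMGB1, -1.42, -1.39 and -1.74 for LMNB1 to LMNB2, -0.99, -1.06 and -1.46 for LMNB1 to LMNA, and -0.61, -0.65 and -0.63 for HMGN2 to HMGN1.

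**Figure D3:**
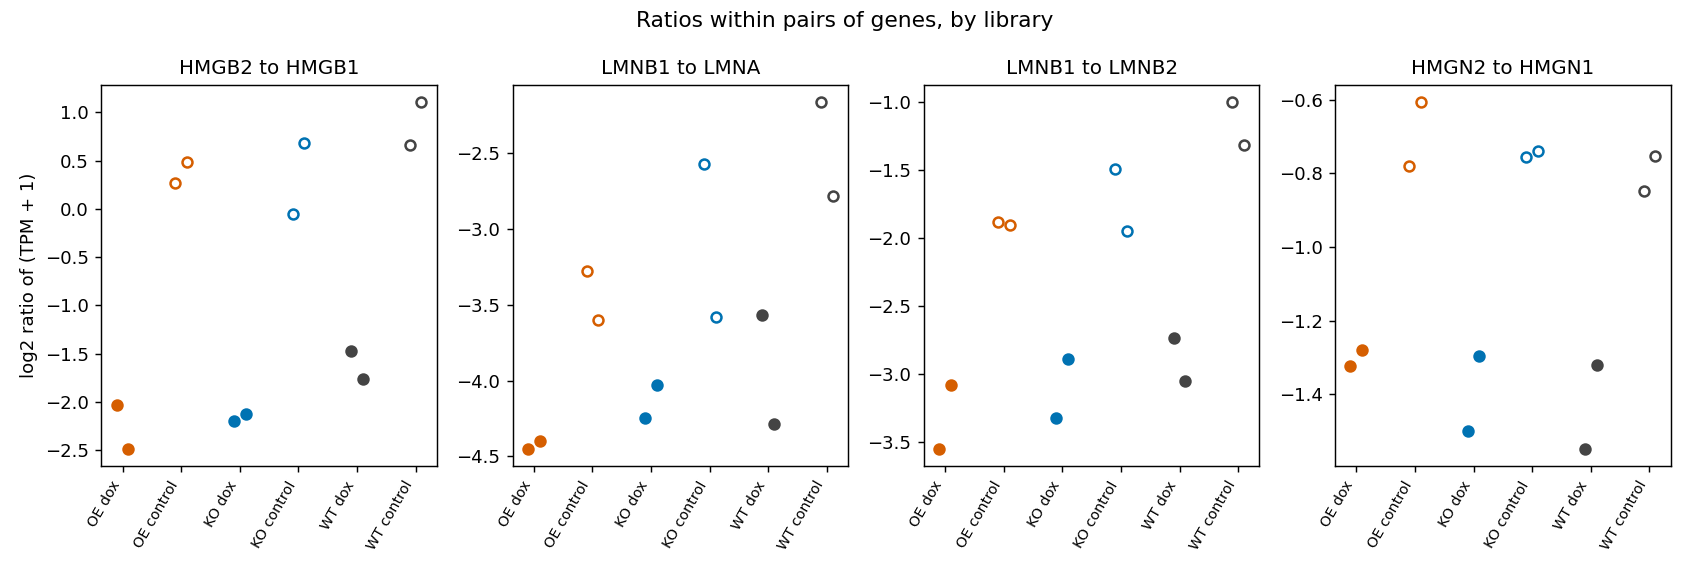
Log2 ratio of (TPM + 1) of the first to the second gene of each pair in every library, by group; points are libraries, filled with doxorubicin and open in regular medium. All doxorubicin points lie below all control points for HMGB2 to HMGB1, LMNB1 to LMNB2 and HMGN2 to HMGN1, and the ranges of LMNB1 to LMNA touch at about -3.6.

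Promoters of genes that fell are shown beside those of relatives that were not called in OE, KO or WT cells. The difference between HMGB1 and HMGB3 itself was not tested. RefSeq promoters (GRCh38.p14, 250 bases before to 50 bases after the start, written 5′ to 3′ on the strand of the gene) were found for 9 of the 10 genes, all but HMGB2. Capitals mark matches, on either strand, to CCAAT (the CCAAT box), TTTGAA or TTTAAA (similar to the cell-cycle homology region, CHR) and TTTCCCGC, TTTGGCGC, TTTCGCGC or TTTGCCGC (similar to E2F sites). The matches shown do not overlap. HMGB1, which fell, and HMGB3, which was not called in any kind of cell, read as follows.
HMGB1 (chr13:30465887-30466186, minus strand): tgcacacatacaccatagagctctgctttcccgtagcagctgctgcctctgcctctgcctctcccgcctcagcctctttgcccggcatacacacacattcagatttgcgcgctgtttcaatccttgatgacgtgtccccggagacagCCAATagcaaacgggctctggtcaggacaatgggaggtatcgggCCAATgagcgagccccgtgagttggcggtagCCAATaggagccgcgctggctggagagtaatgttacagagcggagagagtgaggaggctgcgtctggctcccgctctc
HMGB3 (chrX:150983085-150983384, plus strand): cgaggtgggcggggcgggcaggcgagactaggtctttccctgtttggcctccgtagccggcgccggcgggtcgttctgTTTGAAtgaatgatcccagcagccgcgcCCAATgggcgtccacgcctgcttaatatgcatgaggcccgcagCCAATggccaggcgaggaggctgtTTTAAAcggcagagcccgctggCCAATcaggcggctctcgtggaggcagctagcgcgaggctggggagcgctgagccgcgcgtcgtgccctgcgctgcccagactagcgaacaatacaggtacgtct
LMNB1, which fell, and LMNB2, which was not called, read as follows.
LMNB1 (chr5:126776373-126776672, plus strand): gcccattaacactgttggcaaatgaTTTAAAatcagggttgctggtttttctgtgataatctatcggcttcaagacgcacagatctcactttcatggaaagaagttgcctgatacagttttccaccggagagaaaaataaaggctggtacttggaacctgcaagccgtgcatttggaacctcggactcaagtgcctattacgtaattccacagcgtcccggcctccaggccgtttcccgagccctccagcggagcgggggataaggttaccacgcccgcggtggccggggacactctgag
LMNB2 (chr19:2456910-2457209, minus strand): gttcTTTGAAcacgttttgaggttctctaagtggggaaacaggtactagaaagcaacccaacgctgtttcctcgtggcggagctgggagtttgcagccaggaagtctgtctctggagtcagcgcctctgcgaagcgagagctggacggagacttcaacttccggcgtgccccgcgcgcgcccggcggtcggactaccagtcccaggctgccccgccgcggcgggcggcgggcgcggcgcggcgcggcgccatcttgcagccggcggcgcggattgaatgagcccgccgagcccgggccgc
HMGB1 held 3 CCAAT matches and no CHR-like match, and HMGB3 held 3 CCAAT and 2 CHR-like matches. LMNB1 and LMNB2 each held 1 CHR-like match far from the start and no CCAAT match. Over the 9 promoters, 7 held a CHR-like match, 6 a CCAAT match and 1 (LMNA) an E2F-like match, beside 24.3, 35.7 and 3.33% of 27305 RefSeq promoters of the same length. Matches were found both in genes that fell and in genes that were not called.

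Likeness was sought among the tested genes other than small RNA genes, pseudogenes, LINC genes and genes with clone, identifier or orf names. Among these, the genes whose pattern over the 12 libraries was most like that of HMGB2 were TOP2A, which encodes a topoisomerase II that doxorubicin traps, NUSAP1, a spindle protein, and CCNB1, cyclin B1 (Pearson r of log2(TPM + 1) 0.998, 0.996 and 0.996). The points share libraries and scaling, and most of the spread lies between the media. Within the 6 doxorubicin libraries r was 0.981, 0.992 and 0.950, and within the 6 control libraries 0.984, 0.924 and 0.997. These genes were picked for the highest r over the same libraries, so high values within a medium are partly built in. With the log2 summed TPM of a set list of 20 proliferation genes, r of HMGB2 was 0.96 in control medium and 0.47 with doxorubicin. In control medium it was the highest of the members, with HMGB1 next (0.77). With doxorubicin r was higher for HMGB3 (0.97), LMNB2 (0.93), LMNA (0.80), HMGN1 (0.73), HMGN2 (0.72), LMNB1 (0.53) and HMGB1 (0.49). It was lower for LBR (0.24) and HMGA1 (-0.64). TOP2A had 1.96 and 1.36 TPM in OE dox, against 25.1 and 30.2 TPM in OE control. It had 1.95 and 2.02 TPM in KO dox, against 18.0 and 44.9 TPM in KO control. It had 4.77 and 3.23 TPM in WT dox, against 48.4 and 54.3 TPM in WT control. The order of the 6 control libraries was the same for TOP2A as for HMGB2, with KO control a lowest and WT control b highest. LMNB1 was most like RSBN1, ZNF286B and BFSP1 (r 0.990, 0.989 and 0.988), HMGB1 most like JADE1, UAP1 and KLHL15 (0.994, 0.992 and 0.991), and HMGN2 most like CEP44, SMC5 and RFC4 (0.997, 0.990 and 0.989). HMGA1 was most like CD99, MFSD2B and TTC38 (0.993, 0.987 and 0.982) and LBR most like NCOA3, TRIM6 and AKAP2 (0.991, 0.989 and 0.988). Values were lower for HMGB3, which was most like TMEM263, ABL2 and CPE (0.974, 0.961 and 0.960), for HMGN1, most like TIPIN, ZNF714 and ZNF431 (0.961, 0.954 and 0.942), and for LMNA, most like NELFA, PROSER2 and IGFBP6 (0.917, 0.913 and 0.911).

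**Figure D4:**
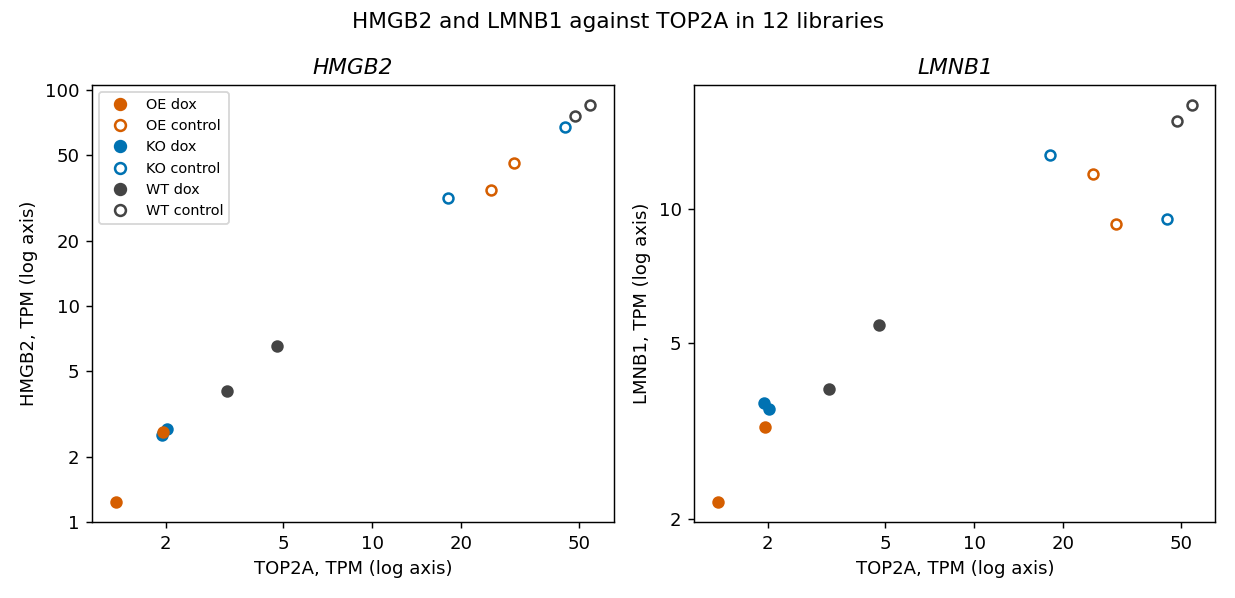
TPM of HMGB2 (left) and LMNB1 (right) against TPM of TOP2A in the 12 libraries, all axes log; points are libraries, filled with doxorubicin and open in regular medium. HMGB2 follows TOP2A within each medium, while the LMNB1 control libraries are scattered, KO control a having 18.0 TPM of TOP2A with 13.2 TPM of LMNB1 and KO control b 44.9 TPM of TOP2A with 9.47 TPM of LMNB1. TOP2A was picked for the highest r to HMGB2 over these same libraries, and not for LMNB1. The closeness on the left is thus partly built in, and the panels are no fair comparison of HMGB2 with LMNB1.

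SPARCLE genotype did not give a called difference in any of the 10 genes. Against WT in control medium, 0 of 10 members were called in OE (0.118% of all genes in either direction) and 0 of 10 in KO cells (0.0918%). With doxorubicin, 0 of 10 were called in OE against WT (0.315%) and 0 of 10 in KO against WT (0.295%). OE against KO gave 0 of 10 in control medium (0.00655%) and 0 of 10 with doxorubicin (0.00655%). The tests of whether the doxorubicin difference itself changed gave 0 of 10 for OE (0.00655%) and 0 of 10 for KO (0.00655%). The same counts of 0 came from voom on recovered reads. At an unadjusted limma p under 0.05 there were 3 members in OE against WT in control medium, 3 with doxorubicin, 1 in KO against WT in each medium, and 0 in the other 4 tests. Of all 15256 genes, 767 in control medium and 737 with doxorubicin passed this for OE against WT, and 1090 and 523 for KO against WT. In the other 4 tests these were 490 and 13 for OE against KO, and 150 (OE) and 194 (KO) for the change in the doxorubicin difference. The comparisons against WT share the WT libraries.

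HMGB2 was the member with the widest gap by genotype. In control medium it had 34.6 and 45.9 TPM in OE, 31.6 and 67.3 TPM in KO and 75.4 and 85.4 TPM in WT cells, so both altered lines lay under WT without overlap. With doxorubicin it had 2.62 and 1.23 TPM in OE, 2.54 and 2.69 TPM in KO and 6.57 and 4.06 TPM in WT cells, again without overlap. The log2 difference of OE against WT was -0.99 (SE 0.35, limma adjusted p 0.785) in control medium and -1.12 (SE 0.35, 0.51) with doxorubicin. For KO against WT it was -0.78 (SE 0.35, 0.683) in control medium and -0.78 (SE 0.35, 1.00) with doxorubicin. The summed TPM of 20 proliferation genes was 404 and 455 in OE, 345 and 602 in KO and 548 and 606 in WT cells in control medium. With doxorubicin the sum was 389 and 200 in OE, 478 and 218 in KO and 359 and 348 in WT cells, which overlapped. In KO dox a it was above KO control a, although the list's median difference in KO cells was -1.92. The part of this sum in the HMGB2 values was not tested. LMNB1 was -0.60 (SE 0.27, limma adjusted p 0.981) and HMGB1 -0.48 (SE 0.22, 0.981) in OE against WT in control medium, and -0.62 (0.978) and -0.48 (0.993) with doxorubicin. HMGA1 was on the other side of WT in control medium, at 1008 and 752 TPM in OE, 875 and 901 TPM in KO and 608 and 629 TPM in WT cells, a log2 difference of 0.49 for OE (SE 0.24, limma adjusted p 1.00) and 0.52 for KO (SE 0.24, 0.686). On log2(TPM + 1), the size of the HMGB2 response differed from that of WT cells by -0.13 in OE (95% interval -1.20 to 0.94) and by 0.01 in KO cells (-1.06 to 1.08). For LMNB1 these differences were -0.03 (-0.86 to 0.80) and 0.22 (-0.61 to 1.05). HMGB2 was low with doxorubicin, where the added 1 narrows a fall, most in the lowest libraries. In mean TPM without it, HMGB2 was 20.9 times lower in OE, 18.9 in KO and 15.1 in WT cells. Whether these folds differ was not tested. With 2 libraries a group the 95% intervals above are wide, and differences up to their ends are not excluded. The intervals are not adjusted for the 15256 genes tested, so larger differences could also go uncalled.

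Lists of related genes are set beside all genes tested, of which 10.6% were lower in OE, 14.3% in KO and 12.6% in WT cells, with medians of 0.11, -0.01 and 0.17. The shares of all genes that were higher were 12.4, 9.9 and 19.6%. Of 17 other HMG-box, HMGA and HMGN genes tested, 2 (11.8%) were lower and 1 (5.88%) higher in each kind of cell, the same genes throughout, and their medians were -0.02 in OE, -0.03 in KO and 0.07 in WT cells. The share that was lower was thus near that of all genes. The gene that rose was HMGA2, the second AT-hook protein (2.28, 1.82 and 1.84 in OE, KO and WT cells, SE 0.33; limma adjusted p 0.000809, 0.00255 and 0.0017), opposite to HMGA1. HMG20B, a subunit of a repressor complex with LSD1, fell (-1.19, -1.23 and -1.15), as did HMGN3, a nucleosome-binding relative of HMGN2 (-0.87, -1.32 and -0.91).

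Of 22 lamina and inner nuclear membrane partners, 6 (27.3%) were lower and 2 higher in OE, 9 (40.9%) and 2 in KO, and 5 (22.7%) and 3 in WT cells, with medians of -0.55, -0.55 and -0.50, so more of them were lower than of all genes. The 4 that fell in all 3 were SUN1 and SUN2, which link lamins to the cytoskeleton, NEMP1 of the inner nuclear membrane, and LPIN1, a phosphatidate phosphatase (-1.61, -1.78 and -2.08 in OE, KO and WT cells). TOR1A, the torsin ATPase of the nuclear envelope (1.82, 1.46 and 1.79), and TMEM201, an inner membrane protein (1.11, 1.14 and 1.45), rose in all 3. Of 9 genes of lamin processing and of sterol reductases, 2 (22.2%) were lower and 2 higher in each kind of cell, with medians of 0.15, -0.02 and 0.41. ZMPSTE24, the protease that matures prelamin A, rose (1.34, 1.30 and 1.69 in OE, KO and WT cells; limma adjusted p 0.00318, 0.00339 and 0.000596), while LMNA itself was not called. TM7SF2, a sterol reductase related to LBR, rose (1.42, 1.23 and 1.62), and DHCR7, which completes cholesterol synthesis, fell (-0.84, -0.72 and -1.05).

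Among 25 heterochromatin proteins 5 (20%) were lower and 2 higher in OE, 2 (8%) and 0 in KO, and 3 (12%) and 3 in WT cells, with medians of -0.06, -0.00067 and 0.27. Beside all genes, the share that was lower was larger in OE, smaller in KO and about equal in WT cells. H2AFZ, the histone variant H2A.Z, fell (-1.34, -1.40 and -1.42), and so did SUV39H1, a histone H3 lysine methyltransferase (-0.87, -0.97 and -0.87). ASF1A, a histone chaperone, rose in OE and WT cells (1.05 and 1.32), and in KO cells its difference was 0.91 (limma adjusted p 0.0631). Among 14 histone chaperones 4 (28.6%) were lower and 0 higher in OE and in KO cells, and 2 (14.3%) and 2 in WT cells, with medians of -0.42, -0.39 and -0.24. ASF1B, which is paired with replication, fell (-1.58, -1.41 and -1.38), and so did ANP32E, which removes H2A.Z (-0.83, -0.74 and -0.82). NAP1L4 rose in WT cells (0.89), with 0.75 and 0.64 in OE and KO cells (limma adjusted p 0.0522 and 0.0874).

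Of the 20 proliferation genes 16 (80%) were lower and 1 higher in OE, 14 (70%) and 0 in KO, and 14 (70%) and 2 in WT cells, with medians of -2.02, -1.92 and -2.07. CDC20 (-4.71, -4.77 and -4.68), CCNB2 (-3.62, -3.53 and -3.81) and BUB1 (-3.17, -3.06 and -3.53), all genes of mitosis, fell. HMGB2 was within the range of these genes, and the other members that fell had smaller differences than the list's median. Of 19 senescence and secretory genes tested, 5 (26.3%) rose and 3 (15.8%) fell in OE, 5 (26.3%) and 3 (15.8%) in KO, and 6 (31.6%) and 0 in WT cells. Of all genes 12.4, 9.9 and 19.6% were higher. The list's medians of 0.08, 0.04 and 0.23 were near those of all genes (0.11, -0.01 and 0.17). CDKN1A, the CDK inhibitor p21, rose (2.96, 2.91 and 3.05), as did ICAM1, an adhesion molecule (2.06, 2.20 and 2.55), and TNFRSF10B, a death receptor (1.31, 1.41 and 1.51). Of 13 epithelial and colon markers tested, 4 (30.8%) rose and 1 (7.69%) fell in OE, 3 (23.1%) and 1 (7.69%) in KO, and 7 (53.8%) and 0 in WT cells. Their medians were 0.55, 0.56 and 1.13. Those with the smallest adjusted p in WT cells were KRT20 (3.21, 3.26 and 4.37), EHF (2.59, 2.56 and 2.92) and KRT8 (0.59, 0.75 and 1.45). The summed TPM of this list was 2941 to 3134 in OE dox and 1929 to 2420 in OE control, 3093 to 3236 in KO dox and 1914 to 2227 in KO control, and 3384 to 3580 in WT dox and 1137 to 1642 in WT control; its part in the members' differences was not tested. Of 3 mesenchymal genes tested ACTA2 rose (1.83, 1.77 and 2.07), and COL1A1 and VIM were not called. The single leukocyte gene tested, CD68, which cell lines also express, fell (-2.08, -2.13 and -1.34).

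**Figure D5:**
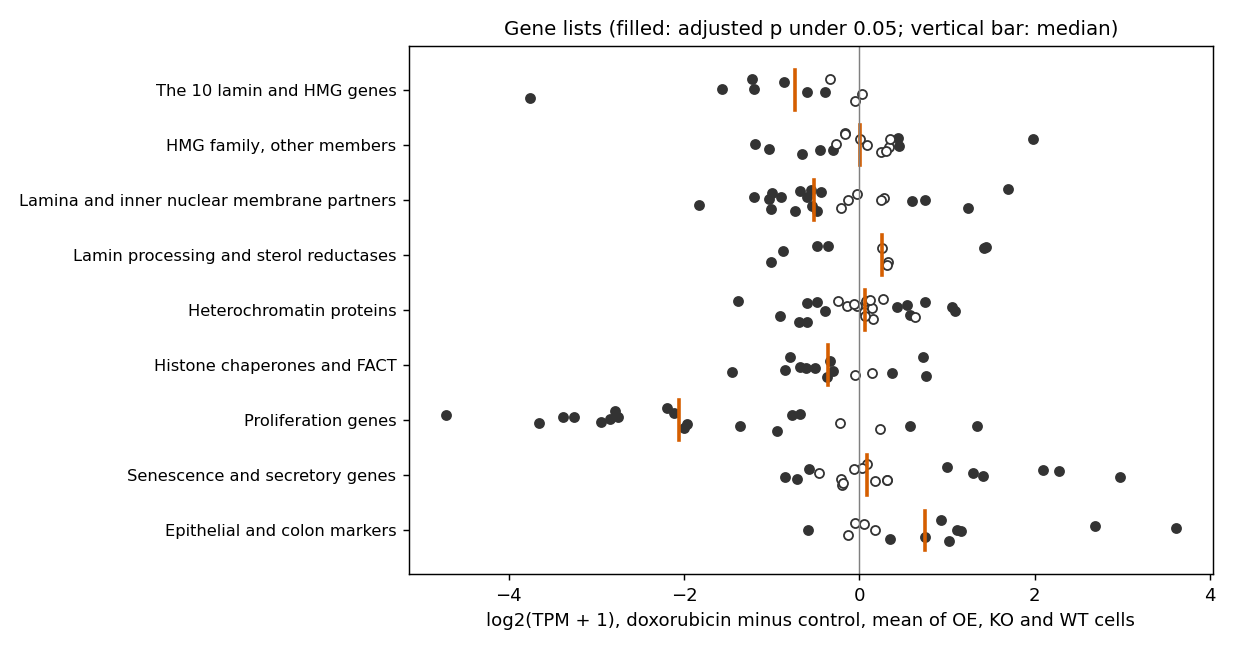
Difference in log2(TPM + 1), doxorubicin minus control, averaged over OE, KO and WT cells, for the 10 genes and for each related list; points are genes, filled where the adjusted p is under 0.05, placed at random heights within a row, and vertical bars are medians. The 10 genes have a median of -0.73 and the proliferation genes one of -2.06, with HMGB2 at -3.76 among the latter's values.

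HMGB1, HMGB3, HMGN1 and HMGN2 have many processed pseudogenes whose sequences are close to the parent, so reads may be split between copies. GENCODE v29 names 48 pseudogenes of HMGB1, of which 2 were in the table, 31 of HMGN1 (2 in the table), 29 of HMGB3 (1), 8 of HMGA1 (1), 36 of HMGN2 (0) and 1 of HMGB2 (0). HMGB1P5 fell (-1.9998, -2.14 and -1.64 in OE, KO and WT cells; limma adjusted p 0.00145, 0.000892 and 0.0027), with 3.41 ± 1.62 TPM with doxorubicin and 15.5 ± 4.78 TPM in control medium (SD, n = 6 each). HMGB1P3 rose (1.80, 1.73 and 1.31; limma adjusted p 0.00192, 0.00218 and 0.00648), with 3.52 ± 1.37 TPM with doxorubicin and 0.450 ± 0.342 TPM in control medium. HMGN1P15 averaged 1.06 ± 0.57 TPM with doxorubicin and 5.04 ± 1.94 TPM in control medium, and HMGN1P8 averaged 3.20 ± 1.46 TPM with doxorubicin and 8.37 ± 3.39 TPM in control medium. Both were lower with doxorubicin as an average over the 3 kinds of cell (-1.54 and -1.17; limma adjusted p 0.000121 and 0.000491), while HMGN1 was not called. HMGA1P3 was lower in the same average (-0.92, limma adjusted p 0.00496) and HMGB3P9 was not called (-0.37, 0.191). In control medium HMGB1P5 stood closest to its parent, HMGB1 averaging 37.0 ± 6.94 TPM there, and with doxorubicin HMGB1 averaged 15.3 ± 2.82 TPM (SD, n = 6 each).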

How the data were processed

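Total RNA of the 12 libraries was extracted with Trizol and made into stranded libraries, per the labels' protocols. The authors deposited log2 TPM per gene; the build hg38, featureCounts, edgeR 3.12.1 in R 3.3.3, SAMtools 1.7 and HISAT2 2.0.4 are listed, per the submitters' processing notes. The annotation, strand setting and filter are not given in the sources used here. In the deposited log2 table, TPM added up to 1000000 in each column over 16676 genes. Symbols and coordinates came from GENCODE v29 (16564 identifiers matched). With its exon lengths, 15182 genes gave whole reads in each library within 0.05 reads, and 5 did with shuffled lengths; LMNB2 took a length found by search (5473 bases, 5432 in GENCODE).

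The 15256 genes that reached 1 TPM in 2 or more libraries were tested on log2(TPM + 1) with limma 3.58.1 in R 4.3.3, as 6 group means over 12 libraries with a variance trend. Groups came from sample titles. The tests were tested on simulated data. The alternatives were a pseudocount of 0.1, no filter, a mean TPM of at least 5, median-ratio scaling, TPM without 862 small RNA genes, only the compared groups, no trend, voom on recovered reads, a replicate block and each library left out. Named genes were the members, the 3 of each list with the smallest adjusted p in WT cells, the 3 most alike for each member (those of LMNB2 are not reported here), and pseudogenes of the members in the table. Members and lists were chosen with earlier results of these data known.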

Additional observations from a re-analysis of the deposited data

How the results depend on the processing

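HMGB1, HMGB2 and LMNB1 were called lower with doxorubicin in OE, KO and WT cells under all 21 alternatives. With 1 library left out, the members called in WT cells numbered 3 to 6 (5 with all libraries; 3 without WT dox b), in KO cells 3 to 6 (6; 3 without KO dox a) and in OE cells 4 to 5 (5). The letters a and b pair nothing in the labels, and a minus b correlated between groups by -0.389 (WT control with KO control) to 0.810 (KO dox with OE dox). For KO control with OE control it was 0.50. The gaps between a and b in KO dox and OE dox, such as those of HMGB3 and LMNB2, may thus not be separate observations. With a replicate block 6 members were called in each kind of cell, HMGN2 being added in OE and WT cells; over all genes the block gave 4694 calls in OE, 4778 in KO and 6069 in WT cells, against 3510, 3695 and 4914. Crossing the letters of WT control, chosen after seeing the data, gave 38 calls in OE and 50 in KO against WT in control medium (18 and 14 without a block, 24 and 35 with the letters as labelled). For the ratios the paired exact permutation p was 0.03125.

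No difference that turned sign was called with all libraries. With median-ratio scaling and with voom, HMGN1 was -0.056 and -0.022 in OE, -0.13 and -0.13 in WT and -0.075 and -0.060 on average, and LMNB2 was -0.10 and -0.11 in WT cells. Without small RNA genes HMGN1 was 0.11 in KO, and LMNB2 0.14 in KO (0.0051 with voom) and 0.048 on average. The KO by doxorubicin term of HMGB2 was -0.16 at pseudocount 0.1, and the OE term of LMNB1 0.044 with median-ratio scaling. With 1 library left out, LMNB2 ranged from -0.67 to 0.21 in OE, -0.26 to 0.21 in KO, -0.11 to 0.33 in WT and -0.19 to 0.10 on average, HMGN1 from -0.084 to 0.21, -0.20 to 0.080, -0.13 to 0.30 and -0.041 to 0.10, HMGB3 from -0.93 to 0.15 in OE and -0.76 to 0.11 in KO, and LMNA from -0.54 to 0.20 in WT cells. The terms ranged from -0.48 to 0.22 (OE) and -0.53 to 0.54 (KO) for HMGB2, and from -0.23 to 0.18 (OE) and -0.0013 to 0.44 (KO) for LMNB1. HMGB3 was called on average without KO dox a (0.0422) or OE dox a (0.0212), with median-ratio scaling (0.0117) and with voom (0.0116). Over all genes, a mean TPM of at least 5, which tested 9210 genes, gave 2316 calls in OE (25.1% of those tested, 23.0% as reported), 2353 in KO (25.5%, 24.2%) and 5434 on average (59.0%, 58.0%), median-ratio scaling 5968 in OE and 5695 in KO, no small RNA genes 5909 and 5564, and voom 5433 in OE cells. Over all settings that kept every library, the calls against WT ranged from 8 to 44 in OE and 3 to 50 in KO in control medium, and from 17 to 115 in OE (48 as reported) and 13 to 92 in KO (45) with doxorubicin, 0 of them members. The cause was not tested.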

Other observations

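The pseudogene row HMGB1P3, which rose while HMGB1 fell, lies within SP100 on the same strand, a nuclear body gene chosen here after its values were seen. SP100 rose with doxorubicin (log2 difference 1.07 in OE, 1.10 in KO and 0.96 in WT cells; limma adjusted p 0.0107, 0.0087 and 0.0122). HMGN1P15 lies within CCDC112 on the same strand, which fell (-1.06, -1.70 and -1.37; limma adjusted p 0.0343, 0.0036 and 0.00788). HMGN1P8 lies within PDCD10 on the same strand, which was not called (0.07, -0.20 and 0.06). HMGB3P9, which was not called, lies within EVI5 on the same strand, which was called lower on average only (-0.41, SE 0.14, limma adjusted p 0.0245). TIMM13, which overlaps LMNB2, was called on average only (0.86, SE 0.21, limma adjusted p 0.00351).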
